A study of Mus musculus with 40 samples.

Results

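The mitosis, spindle and kinetochore genes described here are 43 mouse genes that were picked by symbol and not by any measured value. They encode the kinases and phosphatases that drive mitotic entry, the spindle checkpoint, the factors that release sister chromatids, the chromosomal passenger proteins, the kinetochore, the spindle motors and the proteins of the central spindle and cytokinesis. Each symbol matched 1 of 55487 gene entries in the deposited tables, and all 43 passed the filter on low counts that left 11844 genes for testing. RNA was sequenced from 40 single preimplantation embryos with SMART-seq2, a full-length cDNA method that keeps neither strand nor molecular identifiers. Zygotes received 20 uM siRNA against Rif1 (siRif1) or control siRNA (siCon) by injection between 17 and 18 h after hCG, the hormone that triggers ovulation, and grew in KSOM medium. The series held 12 siRif1 and 8 siCon embryos at the 8-cell stage, taken 70 h after hCG, and 13 siRif1 and 7 siCon embryos at the 4-cell stage, taken 63 h after hCG. The cross is written (C57BL/6J xCBA) x DBA/2J for the first control embryo, and the number after DBA grows by 1 with each later embryo up to 41, so only the first name is a known strain. All embryos carried an injected siRNA, and uninjected embryos were not analysed here.

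In mitosis the kinase CDK1, switched on by the CDC25 phosphatases, starts chromosome condensation and spindle assembly. Kinetochores, built on centromeric chromatin marked by the histone variant CENP-A, grip microtubules through the NDC80 complex, and the spindle checkpoint holds back the anaphase-promoting complex until every chromosome is attached. Once CDC20 activates that complex, securin is degraded, separase cuts cohesin, and the central spindle then directs cytokinesis. Cleavage-stage blastomeres divide without growth between divisions, first with transcripts inherited from the oocyte and then with those of the embryo's own genome. RIF1, the protein targeted by the siRNA, is known for its roles in replication timing and in the repair of double-strand breaks.

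Gene counts per embryo ranged from 704863 to 8890551 with a median of 3186068.5, and the 43 genes together took 0.224% to 0.863% of them. These genes had 3419 to 67127 counts per embryo. The targeted gene, Rif1, averaged 220.1 ± 92.9 CPM, the unit of counts scaled to library size by the trimmed mean of M-values, in siRif1 8-cell embryos (SD, n = 12) and 314 ± 42.6 CPM in siCon 8-cell embryos (SD, n = 8). At the 4-cell stage it averaged 178 ± 94.5 CPM in siRif1 embryos (SD, n = 13) and 428 ± 107 CPM in siCon embryos (SD, n = 7). Its log2 fold change was -0.52 at the 8-cell stage (adjusted p = 0.999 by edgeR's quasi-likelihood test) and -1.26 at the 4-cell stage (adjusted p = 0.0064), so its decrease passed the threshold at the 4-cell stage and missed it at the 8-cell stage, and values overlapped at both. With the replicate number as a block, which does not pair these embryos, the 4-cell value was -1.23 (adjusted p = 0.071), so that call was lost. With siCon 4-cell embryos 3 and 7 left out it stood at -1.35 (adjusted p = 0.0499). Over all the alternative settings the 4-cell decrease of Rif1 was as small as -1.10 and its adjusted p as high as 0.596. The block was therefore not the only setting that ended the call, while all 20 fits that left out 1 embryo kept it. All 9 markers of the cleavage embryo were at 1 CPM or more in at least 1 group, although Cdx2 averaged 0.0266 CPM in siRif1 4-cell embryos and was at 0 in every siCon 4-cell embryo, and 14 of 18 cumulus and granulosa markers lay under 1 CPM in every group. The other 4, Amhr2, Star, Col4a1 and Gja1, were detected, with Gja1 at 747 CPM in siRif1 8-cell, 642 in siCon 8-cell, 376 in siRif1 4-cell and 324 in siCon 4-cell embryos on average. In the siCon 4-cell group, embryos 3 and 7 had summed maternal oocyte transcripts of 2574 and 4645 CPM, against 551 to 1554 CPM in the other 5 embryos of that group, 528 to 1060 CPM in siRif1 4-cell embryos and 220 to 504 CPM at the 8-cell stage. The same embryos had summed cumulus and granulosa markers of 115 and 54.8 CPM, against 431 to 793 CPM in the other 5. These sums mainly follow Gja1 and Amhr2, at means of 324 and 83.3 CPM in siCon 4-cell embryos, where the sum averaged 413 CPM. Fshr, Inhba, Ptx3 and Hsd3b1 were at 0 in all 40 embryos, and the sums are not a measure of cumulus cells. Summed cleavage markers were 1534 CPM in embryo 7 and 3399 CPM in embryo 3, against 2981 to 5024 CPM in the other 5. Called differences that were lost, or moved by more than 1.5 times, when those embryos were left out are given both ways. Whether embryos differ in litter or day of injection is not stated in the labels. The p-values set each difference against a spread between embryos estimated over all 40 embryos, and that spread may be partly technical. Each library is a whole embryo, so fewer cells expressing a gene and less RNA per cell cannot be told apart.

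Levels of the 43 genes spanned a wide range when divided by the length of their exons (CPM per kilobase, mean of the 4 groups, exon lengths from GENCODE M21). Cdc20, the mitotic activator of the anaphase-promoting complex, stood highest at 382 CPM per kb, and Sgo2a, a shugoshin that protects centromeric cohesion, lowest at 1.90 CPM per kb. Among the kinases, Aurka, which matures centrosomes and builds the spindle, reached 167 CPM per kb and Ttk, the MPS1 kinase that starts checkpoint signalling, 4.85. The phosphatases that activate CDK1 lay close together, with Cdc25a at 10.4, Cdc25b at 10.2 and Cdc25c at 9.42 CPM per kb. Checkpoint genes were also close, from Mad2l1 at 15.9 to Mad1l1, its partner at unattached kinetochores, at 9.93 CPM per kb. Birc5, survivin, was the highest passenger gene at 69.9 CPM per kb and Incenp, the passenger scaffold, the lowest at 24.3. At the kinetochore the values ran from 40.0 CPM per kb for Cenpa to 2.08 for Nuf2, a subunit of the NDC80 complex. Tpx2, an activator of Aurora A, was the highest of the spindle motors and assembly factors at 45.6 CPM per kb, and Kif18a, a motor that damps chromosome oscillation, the lowest at 6.11. Among the cytokinesis genes, Kif20a stood at 27.7 and Anln, the actin-binding anillin of the cleavage furrow, at 12.2 CPM per kb. Joining all exons of a gene can overstate the length used in an embryo, so close neighbours in this order are not separated.

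The median SD of log2 CPM over the 43 genes was 0.47 in siRif1 8-cell, 0.38 in siCon 8-cell, 0.49 in siRif1 4-cell and 0.60 in siCon 4-cell embryos, against 0.60, 0.54, 0.66 and 0.74 over all genes tested in the same groups. Aurkc, the germline Aurora kinase, was the most variable in both siRif1 groups, with SDs of 1.10 at the 8-cell stage and 1.18 at the 4-cell stage. Cdc25b, which triggers mitotic entry at the centrosome, held that place in both siCon groups, with SDs of 1.61 at the 8-cell stage and 1.53 at the 4-cell stage. Reads were counted without regard to strand, so the values of genes whose exons overlap an opposite-strand gene are uncertain. That overlap covers 35.0% of the exon length of Sgo2a (with Kctd18), 29.3% of Kif20a (with Cdc23), 15.1% of Kif4 (with Pdzd11), 12.7% of Cdc25c (with Gm3550) and 11.1% of Prc1 (with Rccd1), and Kif4 also has 1 annotated pseudogene.

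Promoters of mitotic genes often carry a cell cycle genes homology region, searched here by its core letters TTTGAA, and CCAAT boxes, the binding letters of the factor NF-Y. The promoters of 5 genes are shown because these genes differ between stages in the results that follow: Cdk1 and Cenpa were higher at the 8-cell stage in siRif1 embryos, and Spc25, Cenpf and Kif18a were lower at the 8-cell stage with either siRNA. The Cenpf call in siCon embryos rested on siCon 4-cell embryo 7. Capitals mark TTTGAA or CCAAT on either strand (TTCAAA and ATTGG on the gene's strand), and each sequence runs from 250 bases before to 30 after the RefSeq start site on GRCm38.p6. The last 30 bases lie in a GENCODE M21 transcript of the gene for 4 of the 5 and not for Spc25, whose start site therefore differs between these annotations. Lying in a transcript does not show that the start sites agree. GENCODE M21 starts Cdk1 at 69352938 and Cenpa at 30666777, each before the RefSeq start site and within the stretch printed.
Cdk1, chr10:69352883-69353162, minus strand: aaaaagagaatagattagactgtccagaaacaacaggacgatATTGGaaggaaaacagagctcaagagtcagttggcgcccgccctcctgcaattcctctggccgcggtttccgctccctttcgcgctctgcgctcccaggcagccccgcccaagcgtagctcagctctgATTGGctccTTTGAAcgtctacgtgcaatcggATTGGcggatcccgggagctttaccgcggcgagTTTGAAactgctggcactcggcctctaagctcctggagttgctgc
Cenpa, chr5:30666636-30666915, plus strand: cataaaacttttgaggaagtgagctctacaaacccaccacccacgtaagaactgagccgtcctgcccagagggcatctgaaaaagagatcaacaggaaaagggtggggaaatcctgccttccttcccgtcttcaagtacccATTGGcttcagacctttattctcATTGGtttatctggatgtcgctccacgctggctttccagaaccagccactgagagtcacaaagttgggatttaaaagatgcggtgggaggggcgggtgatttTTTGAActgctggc
Spc25, chr2:69206184-69206463, minus strand: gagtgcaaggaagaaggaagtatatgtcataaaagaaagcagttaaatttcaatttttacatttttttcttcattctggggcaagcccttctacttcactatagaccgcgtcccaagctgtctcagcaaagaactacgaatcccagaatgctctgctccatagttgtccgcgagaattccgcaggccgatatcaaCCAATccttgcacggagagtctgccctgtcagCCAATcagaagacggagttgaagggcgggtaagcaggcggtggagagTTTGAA
Cenpf, chr1:189688057-189688336, minus strand: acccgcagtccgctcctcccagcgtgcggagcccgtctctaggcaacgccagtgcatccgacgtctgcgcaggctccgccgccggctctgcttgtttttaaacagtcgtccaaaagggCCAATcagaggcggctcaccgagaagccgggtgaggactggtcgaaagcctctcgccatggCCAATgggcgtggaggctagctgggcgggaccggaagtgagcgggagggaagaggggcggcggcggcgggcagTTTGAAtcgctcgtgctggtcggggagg
Kif18a, chr2:109280488-109280767, plus strand: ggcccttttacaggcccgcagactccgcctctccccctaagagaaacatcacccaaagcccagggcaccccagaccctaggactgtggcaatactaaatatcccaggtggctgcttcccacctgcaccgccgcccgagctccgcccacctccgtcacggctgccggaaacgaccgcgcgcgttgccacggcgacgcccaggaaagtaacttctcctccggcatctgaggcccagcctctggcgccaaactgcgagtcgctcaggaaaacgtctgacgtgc

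Cdk1 has 2 matches to TTTGAA and 3 to CCAAT, while Cenpa, Spc25 and Cenpf have 1 and 2 of them each, and Kif18a has neither. The RefSeq table held promoters, 300 bases long, for 37 of the 43 genes and had no entry matched by symbol for Spc24, Cdc25c, Aurkb, Incenp, Kif20a and Tpx2. TTTGAA occurred in 21 of the 37 genes (56.8%), against 17.9% of all 32851 promoters and 20.2% of 27025 genes. CCAAT occurred in 26 of the 37 (70.3%), against 37.4% of promoters and 41.1% of genes, and 1 pair of matches of the motifs overlapped. Both motifs are known from this class of gene, and a match of letters is not a shown binding site. Of the 12 genes with an entry that were lower at the 8-cell stage in siCon embryos, 8 held TTTGAA and 6 CCAAT, and of the 25 not called there, 13 and 20 did.

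**Figure D1:**
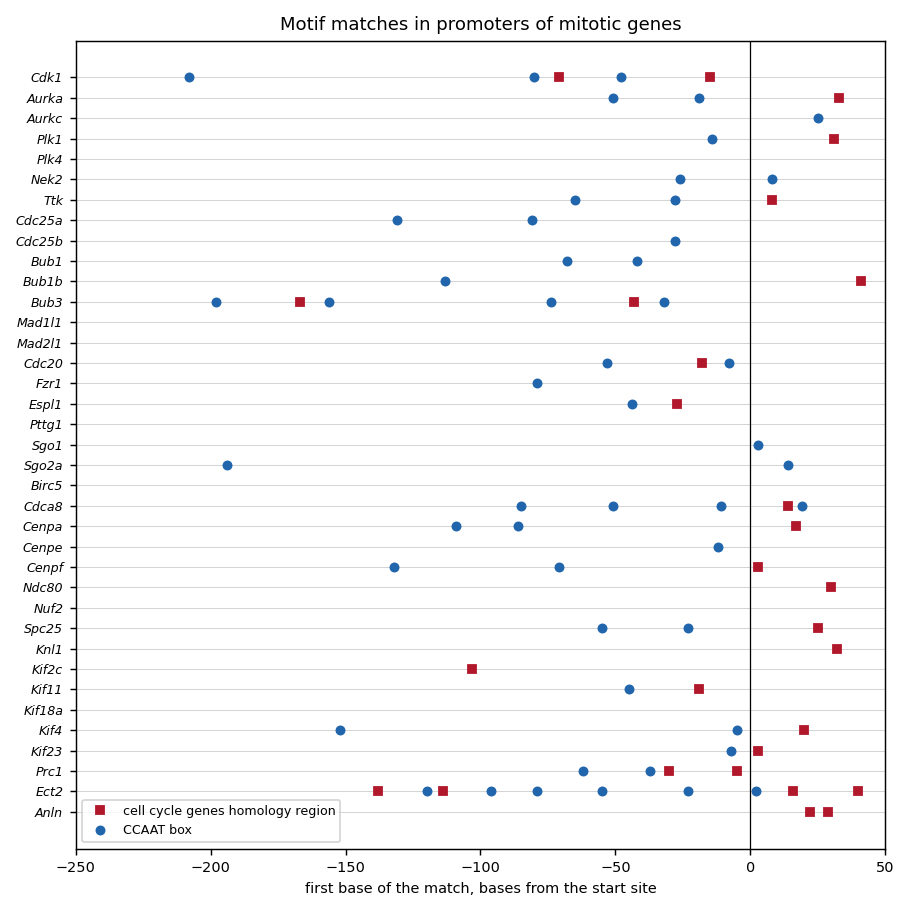
Position of each TTTGAA match (red squares) and CCAAT match (blue circles), both strands, from 250 bases before to 50 after the start site, for the 37 mitotic genes with a RefSeq promoter. A row without a point has no match, as for Kif18a, and most CCAAT matches lie before the start site.

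The comparison of 8-cell with 4-cell embryos asks how these transcripts change over the third cleavage. With either siRNA, the genes past the threshold were mostly lower at the 8-cell stage, led by the microtubule depolymerase Kif2c, the outer kinetochore gene Spc25, the Aurora kinase Aurkb, the phosphatase Cdc25c and the motor Kif18a. Spc24, whose protein pairs with SPC25 in the NDC80 complex, moved the other way. In siRif1 embryos 3 of the 43 genes were higher and 11 lower at an adjusted p below 0.05 (edgeR), where 29.8% of all genes tested were called, 14.5% higher and 15.3% lower. In siCon embryos 1 was higher and 14 lower, where 30.0% of all genes were called, 13.7% higher and 16.3% lower. The median log2 fold change over the 43 genes was -0.22 in siRif1 and -0.36 in siCon embryos, beside -0.01 and -0.03 over all genes tested. The share called, 32.6% in siRif1 and 34.9% in siCon embryos, was thus near that of all genes, with more of the calls lower. These values are relative to the total of each library: scaled to the ERCC spike-in totals instead, the median of all genes shifted to 0.46 in siRif1 and 0.49 in siCon embryos, and the calls became 3 higher and 0 lower in siRif1 and 1 higher and 0 lower in siCon embryos.

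**Figure D2:**
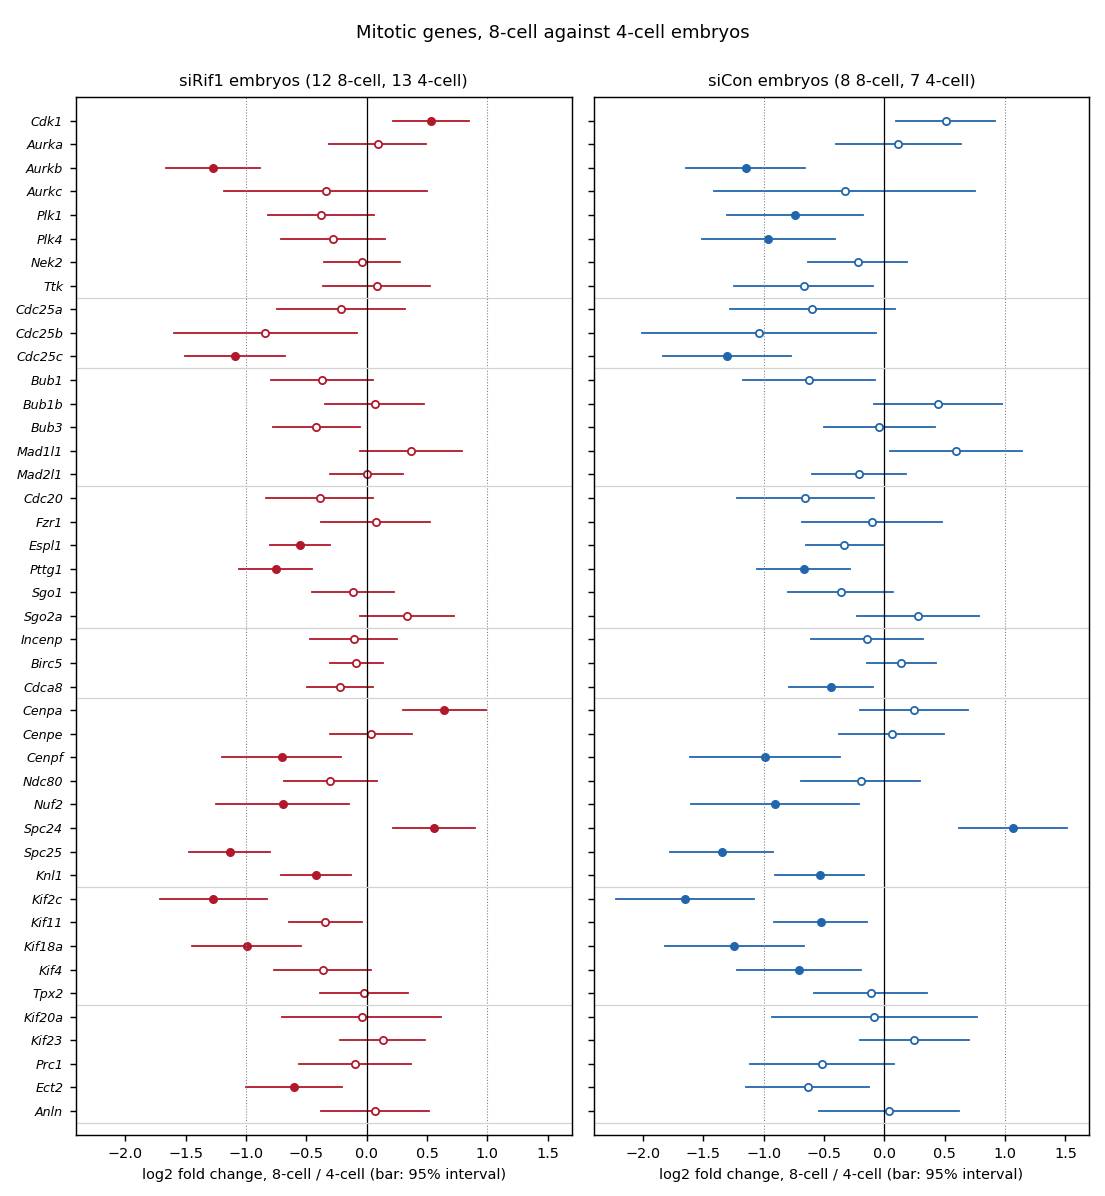
Log2 fold change of 8-cell over 4-cell embryos for the 43 genes in siRif1 (left, red) and siCon embryos (right, blue), with 95% intervals, ordered by role with grey lines between roles; filled points passed an adjusted p of 0.05 and dotted lines mark 2-fold. Kif2c, Spc25, Aurkb, Cdc25c and Kif18a lie to the left of 0 in both panels and Spc24 to the right.

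Among the mitotic kinases, Aurkb, the kinase of the chromosomal passenger complex that corrects wrong attachments, was lower at the 8-cell stage. Its lowest, median and highest values were 25.0, 44.0 and 69.6 CPM in siRif1 8-cell embryos, against 54.2, 101.7 and 216 CPM in siRif1 4-cell embryos. In siCon embryos they were 38.1, 52.5 and 80.2 CPM at the 8-cell stage, against 60.7, 94.99 and 199 CPM at the 4-cell stage. The groups overlapped, with 9 of 12 siRif1 and 6 of 8 siCon 8-cell embryos below every 4-cell embryo of their treatment. The log2 fold change was -1.27 (SE 0.19, adjusted p = 2.4e-06) in siRif1 and -1.15 (SE 0.24, adjusted p = 0.00037) in siCon embryos.

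Cdk1, the kinase at the centre of mitotic entry, went the opposite way, with 319, 422 and 691 CPM in siRif1 8-cell embryos, against 194, 324 and 472 CPM in siRif1 4-cell embryos, and 5 of the 12 8-cell embryos lay above every 4-cell embryo. It was 0.53 higher on the log2 scale in siRif1 embryos (SE 0.16, adjusted p = 0.0084). In siCon embryos Cdk1 had 334, 378 and 464 CPM at the 8-cell stage, against 125.1, 287 and 374 CPM at the 4-cell stage, and a like difference of 0.51 (SE 0.20) missed the threshold at an adjusted p of 0.053. Plk1, the polo kinase of mitotic entry and spindle assembly, was called in siCon embryos at -0.74 (SE 0.28, adjusted p = 0.041), though no 8-cell embryo lay below all 4-cell embryos, and the call was lost in 9 of 15 fits that left out 1 embryo (siCon 4-cell 1, 2, 4 or 6, or siCon 8-cell 1, 2, 3, 4 or 7). In siRif1 embryos Plk1 stood at -0.38 (adjusted p = 0.19). The centriole kinase Plk4 was called in siCon embryos at -0.96 (SE 0.27, adjusted p = 0.0067), a value that rested on siCon 4-cell embryo 7, without which it was -0.33 (adjusted p = 0.24), and without embryos 3 and 7 it was -0.28 (adjusted p = 0.38). Aurka, Aurkc, Nek2 and Ttk did not pass in either treatment, and their log2 fold changes lay between -0.67 and 0.11.

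Of the phosphatases that activate CDK1, Cdc25c was lower in both treatments. It had 13.5, 23.2 and 54.0 CPM in siRif1 8-cell embryos, against 40.9, 50.2 and 98.1 CPM in siRif1 4-cell embryos. In siCon embryos it had 11.2, 29.2 and 48.1 CPM at the 8-cell stage, against 45.7, 66.7 and 90.01 CPM at the 4-cell stage. All but 1 of the 8-cell embryos in each treatment, 11 of 12 siRif1 and 7 of 8 siCon, lay below every 4-cell embryo. The log2 fold change was -1.09 (SE 0.21, adjusted p = 7.9e-05) in siRif1 and -1.30 (SE 0.26, adjusted p = 0.00020) in siCon embryos. Cdc25b had log2 fold changes of -0.84 (SE 0.38, adjusted p = 0.086) in siRif1 and -1.04 (SE 0.48, adjusted p = 0.097) in siCon embryos, and Cdc25a -0.21 and -0.60, none past the threshold. In siCon 4-cell embryos 3 and 7 Cdc25b was at 19.8 and 3.90 CPM, against 56.8 to 88.3 CPM in the other siCon 4-cell embryos. Without embryos 3 and 7 the median of the 3 phosphatases in siCon embryos moved from -1.04 to -1.34. None of the 5 spindle checkpoint genes passed in either treatment. The largest of their differences were Bub1, the kinase that recruits shugoshin, at -0.63 in siCon (adjusted p = 0.074) and Bub3 at -0.42 in siRif1 embryos (adjusted p = 0.071).

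Securin, encoded by Pttg1, was lower in both treatments. Its values were 64.6, 107.9 and 144 CPM in siRif1 8-cell embryos, against 122 to 248 CPM with a median of 175 in siRif1 4-cell embryos, and 8 of the 12 8-cell embryos lay below that range. In siCon embryos the values were 91.5, 125 and 212 CPM at the 8-cell stage, against 114, 206 and 264 CPM at the 4-cell stage, and 3 of 8 lay below the 4-cell range. Log2 fold changes were -0.76 (SE 0.15, adjusted p = 0.00016) in siRif1 and -0.67 (SE 0.19, adjusted p = 0.0071) in siCon embryos. Espl1, separase itself, was lower in siRif1 embryos at -0.55 (SE 0.12, adjusted p = 0.00072) and stood at -0.33 in siCon embryos (SE 0.16, adjusted p = 0.11). Cdc20 had medians of 585 CPM in siRif1 8-cell, against 813 CPM in siRif1 4-cell embryos, and 487 CPM in siCon 8-cell, against 936 CPM in siCon 4-cell embryos. Neither difference passed (-0.39, adjusted p = 0.18, and -0.66, adjusted p = 0.072). Fzr1, the other activator of the complex, and the shugoshins Sgo1 and Sgo2a did not pass in either treatment.

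Of the 3 passenger partners of the Aurora kinases, 0 passed in siRif1 embryos and 1 in siCon embryos. Incenp had log2 fold changes of -0.11 (SE 0.18) in siRif1 and -0.15 (SE 0.23) in siCon embryos, and Birc5 -0.09 (SE 0.11) and 0.14 (SE 0.14). Cdca8, borealin, was called in siCon embryos at -0.44 (SE 0.17, adjusted p = 0.047), a call lost in 11 of 15 fits that left out 1 embryo (siCon 4-cell 1, 2, 3, 4 or 6, or siCon 8-cell 1, 2, 3, 4, 6 or 7), and stood at -0.22 in siRif1 embryos (adjusted p = 0.21). Birc5 levels were even across the study, with medians of 221 CPM in siRif1 8-cell, 252 in siCon 8-cell, 229.6 in siRif1 4-cell and 248 in siCon 4-cell embryos.

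At the kinetochore, 2 genes were higher and 4 lower among 8 in siRif1 embryos, and 1 was higher and 4 lower in siCon embryos. Spc24 and Spc25, whose products form one end of the NDC80 complex, moved in opposite directions. Spc25 had 17.6, 28.5 and 48.1 CPM in siRif1 8-cell embryos, against 44.3, 69.9 and 91.6 CPM in siRif1 4-cell embryos, where 10 of 12 8-cell embryos lay below all others. In siCon embryos Spc25 had 23.7, 35.4 and 45.3 CPM at the 8-cell stage, against 60.2, 74.1 and 159 CPM at the 4-cell stage, with no overlap. Its log2 fold change was -1.14 (SE 0.17, adjusted p = 1.4e-06) in siRif1 and -1.35 (SE 0.21, adjusted p = 5.9e-06) in siCon embryos.

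Spc24 had 20.9, 30.7 and 42.0 CPM in siRif1 8-cell embryos, against 8.11, 21.3 and 32.9 CPM in siRif1 4-cell embryos, and 4 of 12 lay above all 4-cell embryos. In siCon embryos Spc24 had 32.0, 40.7 and 47.3 CPM at the 8-cell stage, against 9.77, 19.9 and 26.7 CPM at the 4-cell stage, again without overlap. It was higher by 0.56 on the log2 scale in siRif1 (SE 0.17, adjusted p = 0.011) and by 1.06 in siCon embryos (SE 0.22, adjusted p = 0.00030). Spc24 and Spc25 were 2 of the 43 genes without overlap in siCon embryos, beside 5.76% of all genes. In siRif1 embryos 0 of the 43 were without overlap, beside 1.34% of all genes.

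Cenpa, the centromeric histone, was called higher in siRif1 embryos, with 158, 292 and 517 CPM at the 8-cell stage, against 106.3, 161 and 365 CPM at the 4-cell stage, and overlapping groups. Its log2 fold change was 0.64 in siRif1 (SE 0.17, adjusted p = 0.0038) and 0.24 in siCon embryos (SE 0.22, adjusted p = 0.43). Knl1, the scaffold that binds checkpoint proteins, was lower in both, at -0.42 (SE 0.14, adjusted p = 0.023) in siRif1 and -0.54 (SE 0.18, adjusted p = 0.023) in siCon embryos, but its sign turned with spike-in scaling, at 0.060 and 0.0036, and in siCon embryos the call was lost without siCon 4-cell embryo 6. Cenpf, a large kinetochore and nuclear matrix protein, was lower at -0.71 (SE 0.24, adjusted p = 0.025) in siRif1 and -0.99 (SE 0.31, adjusted p = 0.013) in siCon embryos. Nuf2 was lower at -0.70 (SE 0.27, adjusted p = 0.048) and -0.91 (SE 0.35, adjusted p = 0.042). In siCon embryos both rested on siCon 4-cell embryo 7, without which Cenpf stood at -0.62 (adjusted p = 0.11) and Nuf2 at -0.46 (adjusted p = 0.31). Without siCon 4-cell embryos 3 and 7 they stood at -0.30 (adjusted p = 0.49) and -0.25 (adjusted p = 0.64), and the Nuf2 call was lost in 8 of 15 such fits in all. In siRif1 embryos the Nuf2 call was lost in 17 of 25 fits without 1 embryo. The Cenpf call in siRif1 embryos was kept in all 25 but lost with ERCC totals and with the replicate block. Its call in siCon embryos was also lost with ERCC totals, limma-voom, the compared groups alone and the replicate block. Ndc80 and Cenpe, the plus-end motor of chromosome alignment, did not pass in either treatment.

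Among the spindle motors, Kif2c had 16.4, 53.1 and 94.1 CPM in siRif1 8-cell embryos, against 70.2, 120.1 and 186 CPM in siRif1 4-cell embryos, and 10 of 12 lay below all 4-cell embryos. In siCon embryos Kif2c had 26.5, 42.6 and 61.0 CPM at the 8-cell stage, against 58.5, 123 and 272 CPM at the 4-cell stage, and 7 of 8 lay below. Its log2 fold changes, -1.27 (SE 0.22, adjusted p = 2.0e-05) in siRif1 and -1.65 (SE 0.28, adjusted p = 2.1e-05) in siCon embryos, were the largest decreases among the 43 genes in siCon embryos and level with that of Aurkb in siRif1 embryos. Kif18a had medians of 38.1 CPM in siRif1 8-cell, against 85.1 CPM in siRif1 4-cell embryos, and 33.4 CPM in siCon 8-cell, against 87.5 CPM in siCon 4-cell embryos. It was lower at -0.99 (SE 0.22, adjusted p = 0.00078) in siRif1 and -1.24 (SE 0.29, adjusted p = 0.00093) in siCon embryos. Kif11, the motor that pushes spindle poles apart, and Kif4, a chromokinesin, were called in siCon embryos, at -0.53 (SE 0.19, adjusted p = 0.033) and -0.71 (SE 0.25, adjusted p = 0.030), and each call was lost in 4 of 15 fits that left out 1 embryo. For Kif11 these were siCon 4-cell embryos 1, 6 and 7 and siCon 8-cell embryo 4, and for Kif4 siCon 4-cell embryo 3 and siCon 8-cell embryos 2, 3 and 6. With siCon 4-cell embryos 3 and 7 left out they stood at -0.51 (adjusted p = 0.074) and -0.68 (adjusted p = 0.071). In siRif1 embryos these genes stood at -0.34 (adjusted p = 0.078) and -0.36 (adjusted p = 0.16), and Tpx2 stood at -0.02 there and at -0.11 in siCon embryos.

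Of 5 genes of the central spindle and cytokinesis, 1 passed in siRif1 embryos and 0 in siCon embryos. Ect2, the exchange factor that activates RhoA at the cleavage furrow, was lower in siRif1 embryos at -0.60 (SE 0.20, adjusted p = 0.017) and just missed the threshold in siCon embryos at -0.64 (SE 0.25, adjusted p = 0.0501). Kif20a, Kif23, Prc1 and Anln, which bundle or occupy midzone microtubules or scaffold the contractile ring, did not pass in either treatment, with log2 fold changes from -0.52 to 0.25.

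**Figure D3:**
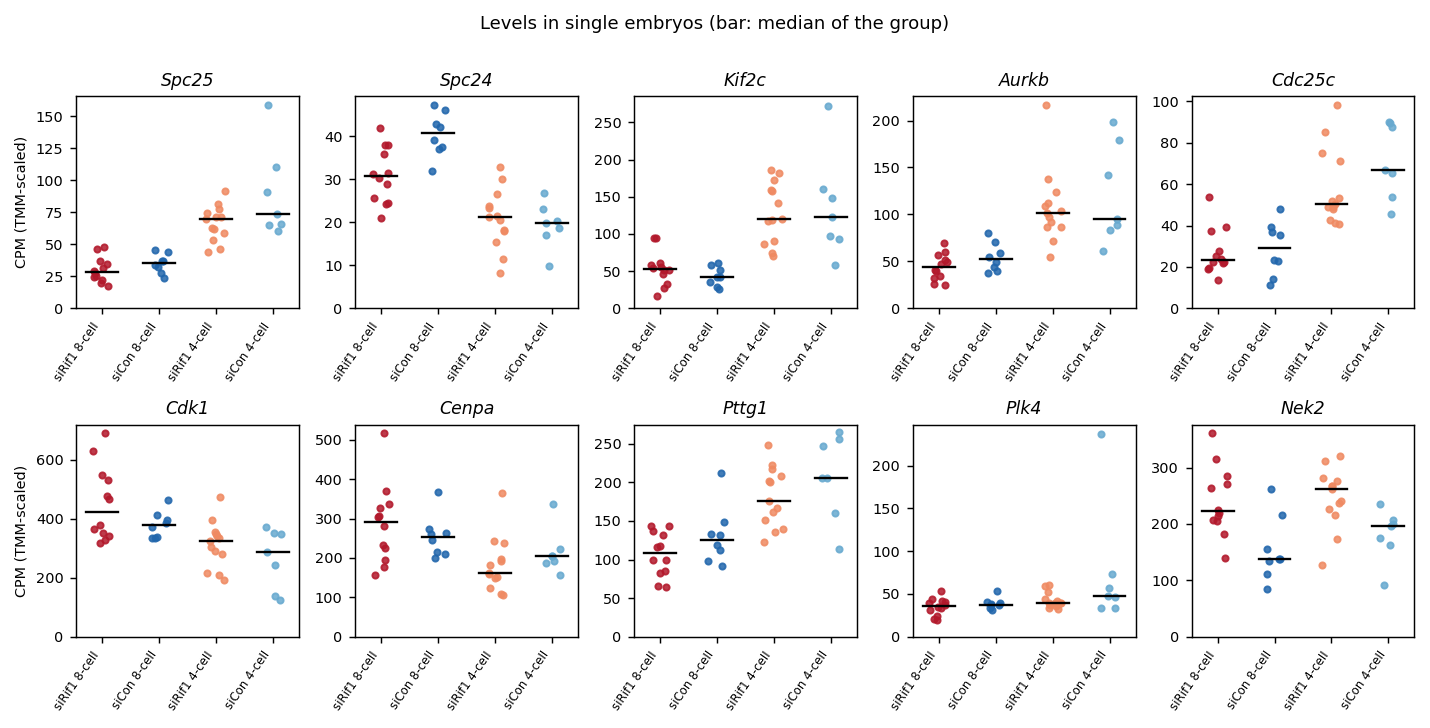
CPM (linear axis from 0) in each embryo for 10 mitotic genes, with siRif1 8-cell, siCon 8-cell, siRif1 4-cell and siCon 4-cell embryos from left to right and the group median as a bar. Spc25, Kif2c, Aurkb, Cdc25c and Pttg1 are lower and Spc24 higher in the 8-cell groups, and siCon 4-cell embryo 7 stands alone at 237 CPM for Plk4.

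The stage differences in the siRif1 and siCon embryos come from separate embryos. Of the 43 genes, 10 were called in both, all in the same direction, which is 71.4% of the siRif1 calls and 66.7% of the siCon calls. Over all genes tested the same shares were 66.8% and 66.3%. Signs matched for 40 of 43 genes (93.0%), beside 82.2% of all genes. Leaving out each embryo in turn kept 13 of the 14 siRif1 calls and 7 of the 15 siCon calls. Those 7 were Spc25, Kif2c, Cdc25c, Spc24, Aurkb, Kif18a and Pttg1. Without siCon 4-cell embryos 3 and 7, 1 gene was higher and 10 lower in siCon embryos. The calls of Plk4, Cenpf, Nuf2, Kif11 and Kif4 were lost there, so not all genes called in that fit were called in the main fit. Those siCon 4-cell embryos carry the raised maternal sums given above, and the part of maternal RNA in the stage differences of the 43 genes was not tested.

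The comparison of siRif1 with siCon embryos asks whether injection of Rif1 siRNA changes these transcripts. No mitotic gene passed the threshold at either stage. At the 8-cell stage the decrease of Rif1 itself missed the threshold, as given above. There 9 of 12 siRif1 embryos lay below every siCon embryo for Rif1, and 1 lay above every one. The 8-cell results therefore compare injections and do not show the effect of a proven loss of Rif1. At the 8-cell stage 0 of 43 were called by edgeR, DESeq2 or limma-voom, where 0.00844% of all genes were called by edgeR (0.00844% higher and 0% lower), and 2 of 43 had an unadjusted p below 0.05, beside 2.95% of all genes. At the 4-cell stage 0 of 43 were called by any of these tools, where 0.566% of all genes were called by edgeR (0.127% higher and 0.439% lower), and 6 of 43 had an unadjusted p below 0.05, beside 11.1% of all genes. The median log2 fold change was 0.02 at the 8-cell stage and -0.10 at the 4-cell stage, beside 0.00 and -0.01 over all genes. In no case did the values of siRif1 and siCon embryos separate without overlap, beside 0% of all genes at the 8-cell stage and 0.00844% at the 4-cell stage.

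**Figure D4:**
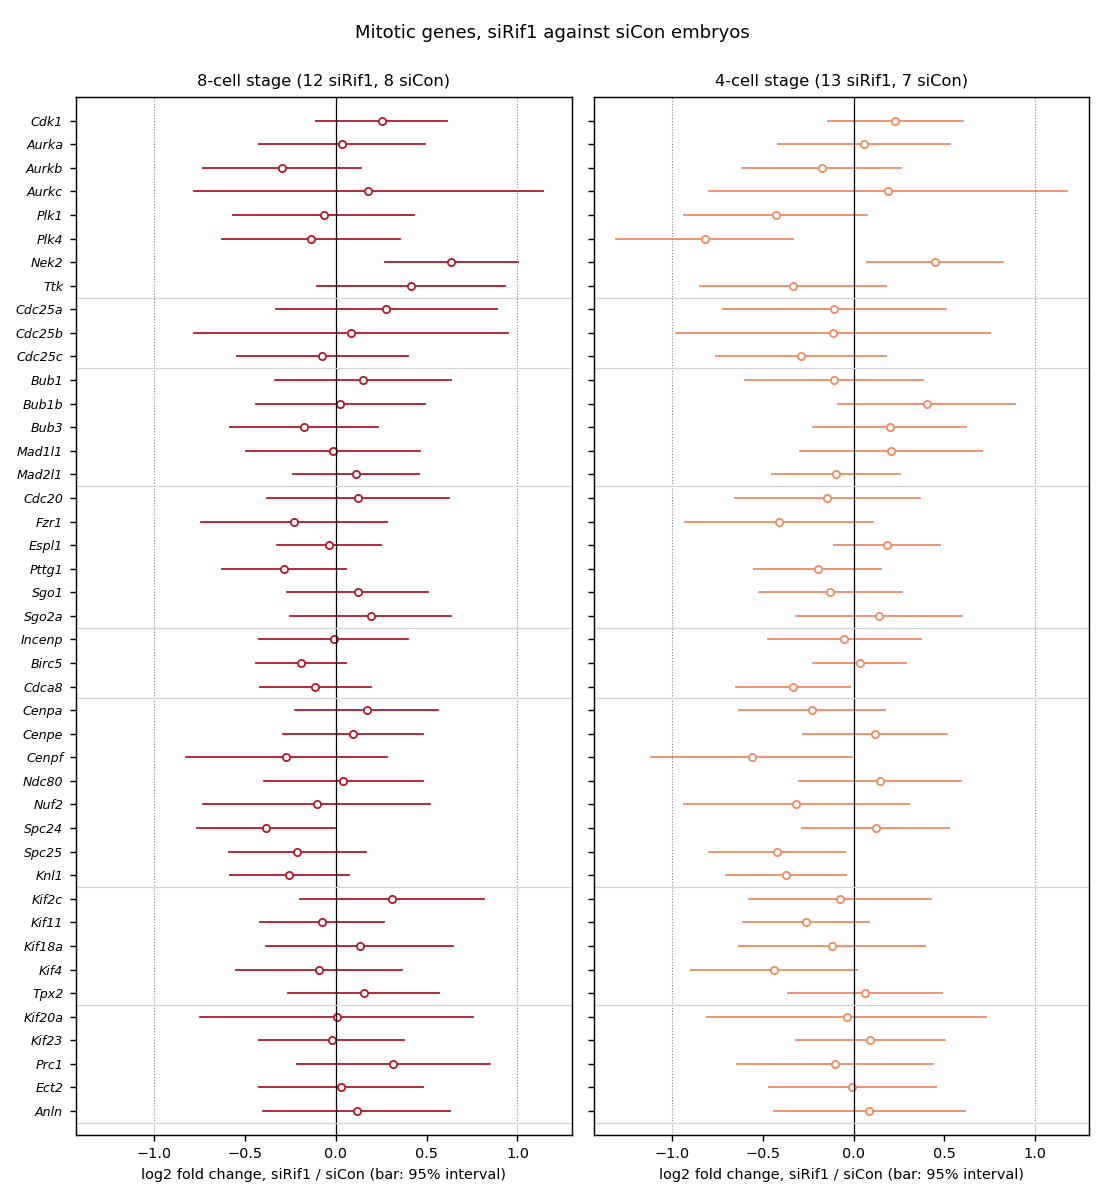
Log2 fold change of siRif1 over siCon embryos for the 43 genes at the 8-cell (left, dark red) and 4-cell stage (right, orange), with 95% intervals, ordered by role with grey lines between roles; open points did not pass an adjusted p of 0.05 and dotted lines mark 2-fold. Every point is open, with Nek2 farthest right in both panels and Plk4 farthest left at the 4-cell stage.

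The intervals of the main fit bound what these embryos could hide in levels relative to the library total. At the 8-cell stage the 95% interval lay within 2-fold in either direction for 41 of 43 genes, all but Aurkc and Nek2, and at the 4-cell stage for 40 of 43, all but Aurkc, Cenpf and Plk4. Aurkc had the widest reach upward, with upper bounds of 1.14 at the 8-cell and 1.17 at the 4-cell stage on the log2 scale. The lowest bounds were -0.83 for Cenpf at the 8-cell stage and -1.31 for Plk4 at the 4-cell stage. The median SE behind these intervals was 0.22 at the 8-cell and 0.23 at the 4-cell stage. Scaled to ERCC totals, some intervals reached past 2-fold, as for Cdk1 at the 8-cell stage (0.48, SE 0.38) and Plk1 at the 4-cell stage (-0.50, SE 0.42). Others did not, as for Birc5 at the 8-cell stage (-0.056, SE 0.32). The counts of 41 and 40 genes therefore do not carry over to that scaling.

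Nek2, a centrosomal kinase that releases the link between duplicated centrosomes, had the smallest p at the 8-cell stage. It had 139.9, 222 and 362 CPM in siRif1 8-cell embryos, against 84.9, 138 and 262 CPM in siCon 8-cell embryos, and 5 of 12 siRif1 embryos lay above every siCon embryo. The log2 fold change was 0.64 (SE 0.18, p = 0.0011, adjusted p = 0.999). At the 4-cell stage Nek2 had 127, 263 and 320.1 CPM in siRif1 embryos, against 91.8, 197 and 235 CPM in siCon embryos, and 9 of 13 lay above every siCon embryo. Its log2 fold change there was 0.45 (SE 0.19, p = 0.020, adjusted p = 0.33), and with siCon 4-cell embryos 3 and 7 left out it stood at 0.28 (p = 0.16, adjusted p = 0.81). Groups overlapped at both stages.

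The next smallest p-values at the 8-cell stage belonged to Spc24 (-0.38, p = 0.049), Pttg1 (-0.28, p = 0.10), Ttk (0.41, p = 0.11) and Knl1 (-0.26, p = 0.12), all with an adjusted p of 0.999. For Spc24, 8 of 12 siRif1 8-cell embryos lay below every siCon 8-cell embryo, at 20.9, 30.7 and 42.0 CPM against 32.0, 40.7 and 47.3 CPM. Ttk had 11.01, 25.2 and 37.1 CPM in siRif1 8-cell embryos, against 9.18, 18.7 and 28.3 CPM in siCon 8-cell embryos, with 5 of 12 above the siCon range.

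At the 4-cell stage the smallest p belonged to Plk4, which had 32.2, 39.6 and 60.4 CPM in siRif1 embryos, against 33.3, 47.2 and 237 CPM in siCon embryos. A single control, siCon 4-cell embryo 7, set the top value, and its nearest neighbour had 73.1 CPM. The log2 fold change was -0.82 (SE 0.24, p = 0.0014, adjusted p = 0.10). Without siCon embryo 7 it was -0.18 (adjusted p = 0.87) and without siCon embryos 3 and 7 it was -0.13 (adjusted p = 0.96), while without siCon embryo 1 or siCon embryo 2 Plk4 passed the threshold, at -0.95 in each case (adjusted p = 0.028 and 0.039). Nek2, higher in siRif1 embryos and given above, had the next smallest p. Spc25 (-0.42, p = 0.029, adjusted p = 0.37), Knl1 (-0.37, p = 0.029, adjusted p = 0.38), Cdca8 (-0.33, p = 0.037, adjusted p = 0.41) and Cenpf (-0.56, p = 0.047, adjusted p = 0.44) followed. Without siCon embryos 3 and 7 the sign of Cenpf turned, at 0.13 (p = 0.63, adjusted p = 0.97), and Spc25 stood at -0.10 (p = 0.61, adjusted p = 0.97). Without the same embryos Knl1 stood at -0.45 (p = 0.018, adjusted p = 0.56) and Cdca8 at -0.39 (p = 0.029, adjusted p = 0.60). Knl1 had 38.6, 47.3 and 70.6 CPM in siRif1 4-cell embryos, against 52.5, 59.8 and 87.7 CPM in siCon 4-cell embryos, and 8 of 13 siRif1 embryos lay below the siCon range.

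Whether the Rif1 siRNA acted differently at the 8-cell than at the 4-cell stage was tested as the interaction of siRNA and stage, given as the 8-cell minus the 4-cell log2 fold change. None of the 43 genes passed in edgeR, where 0% of all genes were called, 1 of 43 had an unadjusted p below 0.05 beside 6.20% of all genes, and DESeq2 and limma-voom also called none of the 43. The smallest p-values were those of Ttk (0.75, SE 0.36, p = 0.044, adjusted p = 0.79), Plk4 (0.69, SE 0.35, p = 0.054, adjusted p = 0.81) and Spc24 (-0.51, SE 0.28, p = 0.074, adjusted p = 0.87). Without siCon 4-cell embryo 7 the value of Plk4 was 0.04. The interaction values with siCon 4-cell embryos 3 and 7 left out were 0.31 for Ttk (p = 0.40), -0.010 for Plk4 (p = 0.97) and -0.36 for Spc24 (p = 0.21), with adjusted p-values of 0.998 or more.

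Other genes of the same machinery were counted in lists, to be read against the 29.8% of all genes called between stages in siRif1 and the 30.0% in siCon embryos. Of 17 subunits and ubiquitin enzymes of the anaphase-promoting complex, 4 were higher and 1 lower at the 8-cell stage in siRif1 embryos and 1 was higher in siCon embryos, which is 29.4% and 5.88% of the list. The ubiquitin-conjugating enzyme Ube2c was higher at 0.56 (adjusted p = 0.0087) and Anapc4 lower at -0.63 (adjusted p = 0.011) in siRif1 embryos, and the RING subunit Anapc11 was higher at 0.76 (adjusted p = 0.00019) in siCon embryos. Of 32 other centromere and kinetochore genes tested, 0 were higher and 9 lower in siRif1 embryos and 1 higher and 9 lower in siCon embryos, or 28.1% and 31.2%. Mad2l1bp, which silences the checkpoint, was the lowest in each, at -1.16 (adjusted p = 7.1e-07) and -1.43 (adjusted p = 2.1e-06), and Pmf1, of the MIS12 complex, was higher at 1.12 in siCon embryos (adjusted p = 0.015), a call lost without siCon 4-cell embryos 3 and 7 (0.97, adjusted p = 0.070). Of 38 other spindle and centrosome genes, 1 was higher and 11 lower in siRif1 and 1 higher and 9 lower in siCon embryos, or 31.6% and 26.3%. Mapre1, the plus-end tracker EB1, was the higher one at 0.59 (adjusted p = 1.7e-05) and 0.39 (adjusted p = 0.021), the second lost without siCon 4-cell embryo 5 or siCon 8-cell embryo 1. The largest decreases among those that passed were the centrosome scaffold Cep192 at -1.07 in siRif1 (adjusted p = 1.6e-05) and the centriole gene Stil at -1.84 in siCon embryos (adjusted p = 0.027). The call of Stil was lost without siCon 4-cell embryo 3 or 7, and without both it stood at -0.96 (adjusted p = 0.32).

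Of 18 other regulators of mitotic entry, 2 were higher and 4 lower in siRif1 embryos and 2 higher and 3 lower in siCon embryos between stages, or 33.3% and 27.8%. Mybl2, a transcription factor of the cell cycle gene programme, was higher at 0.65 in siRif1 embryos (adjusted p = 9.6e-06), and E2f4 was higher at 0.98 in siCon embryos (adjusted p = 0.00020). Wee2, the oocyte kinase that inhibits CDK1, was lower at -2.03 in siRif1 (adjusted p = 0.0030) and -4.83 in siCon embryos (adjusted p = 1.8e-06), where it stood at -3.24 with siCon 4-cell embryos 3 and 7 left out (adjusted p = 0.00019). Of 14 other cytokinesis genes tested, 1 was higher and 2 lower in siRif1 and 2 higher and 4 lower in siCon embryos, or 21.4% and 42.9%. The myosin Myh10 was higher at 1.06 (adjusted p = 1.2e-06) and Rock1 lower at -0.86 (adjusted p = 0.0069) in siRif1 embryos, while citron kinase, Cit, was higher at 1.21 (adjusted p = 0.0012) and Cep55 lower at -1.60 (adjusted p = 0.0090) in siCon embryos. The call of Cep55 was lost without siCon 4-cell embryo 7, and without embryos 3 and 7 it stood at -0.76 (adjusted p = 0.25). The shares called in the kinetochore, spindle and entry lists were near those of all genes, and scaled to ERCC totals each of the 5 lists had 0 or 1 gene lower.

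Between siRif1 and siCon embryos, 2 genes of these lists passed, both lower at the 4-cell stage, where 0.566% of all genes were called (0.439% lower), and 0 passed at the 8-cell stage. Wee2 had 0.772, 7.19 and 21.7 CPM in siRif1 4-cell embryos, against 4.80, 23.4 and 184 CPM in siCon 4-cell embryos, at -2.50 on the log2 scale (SE 0.51, adjusted p = 0.012). Ska2, a kinetochore gene, had 0, 5.03 and 17.0 CPM in siRif1 4-cell embryos, against 5.91, 14.6 and 41.3 CPM in siCon 4-cell embryos, at -1.44 on the log2 scale (SE 0.36, adjusted p = 0.049). Values overlapped for both. Neither passed when siCon 4-cell embryos 3 and 7 were left out, with Wee2 at -0.91 (adjusted p = 0.76) and Ska2 at -0.96 (adjusted p = 0.55). With the replicate block both calls were lost as well, at -2.56 (adjusted p = 0.18) and -1.21 (adjusted p = 0.35), as they were with ERCC totals, limma-voom or the compared groups alone. Leaving out 1 embryo ended the call of Wee2 in 2 of 20 fits (siCon embryo 3 or 7) and that of Ska2 in 14 of 20. Wee2 is an oocyte transcript, and of the maternal oocyte list 5 of 27 tested genes were lower in the same comparison, with a median log2 fold change of -0.59. None of the 27 passed when siCon 4-cell embryos 3 and 7 were left out, with a median of -0.54, and none passed with the replicate block, with a median of -0.56. The sums of that list were highest in siCon 4-cell embryos 3 and 7, and its part in these results was not tested.

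Embryos also differed from each other in the share of counts on the 43 genes. In the siRif1 8-cell group, embryos 1, 2, 3, 7 and 10 had the 5 highest shares of counts on these genes, 0.516% to 0.716%, and the 5 highest ratios of mouse to ERCC counts, 70.0 to 90.5, while the other 7 had shares of 0.224% to 0.433% and ratios of 33.3 to 50.2. The same 5 embryos had the lowest shares of reads not assigned to a gene, 23.2% to 35.6%, against 37.2% to 55.4% in the other 7. Their mitochondrial shares were also the lowest, 2.80% to 3.89%, against 3.90% to 5.79%. Scaled by TMM, the summed CPM of the 43 genes spanned 5522 to 7224 in these 5 and 3830 to 5190 in the other 7. In embryo 2, 37 of the 43 genes lay above their group mean of log2 CPM, and in embryos 4 and 8, 11 did. Kif20a, a motor of the midzone, ran from 34.03 to 259.7 CPM within that group. The siCon 8-cell group did not show the same order, since embryo 8 had both the highest share, 0.622%, and the lowest ratio, 32.3. At the 4-cell stage, the lowest share in either group, 0.354%, belonged to siCon embryo 5, which also had the lowest ratio, 12.9. That embryo had the highest unassigned and mitochondrial shares at this stage, 52.9% and 7.6%. The next lowest ratios went with higher shares: 16.9 with 0.730% (siRif1 embryo 13), 18.4 with 0.752% (siRif1 embryo 9), 18.6 with 0.696% (siCon embryo 7) and 20.2 with 0.736% (siCon embryo 3). The highest share in each group went with its highest ratio, 0.839% with 57.1 (siRif1 embryo 3) and 0.863% with 48.2 (siCon embryo 1), so the order at this stage was mixed. The part of total RNA per embryo, or of the position of each embryo in its cell cycle, in the stage differences was not tested. The part of library quality in these shares was not tested either.

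**Figure D5:**
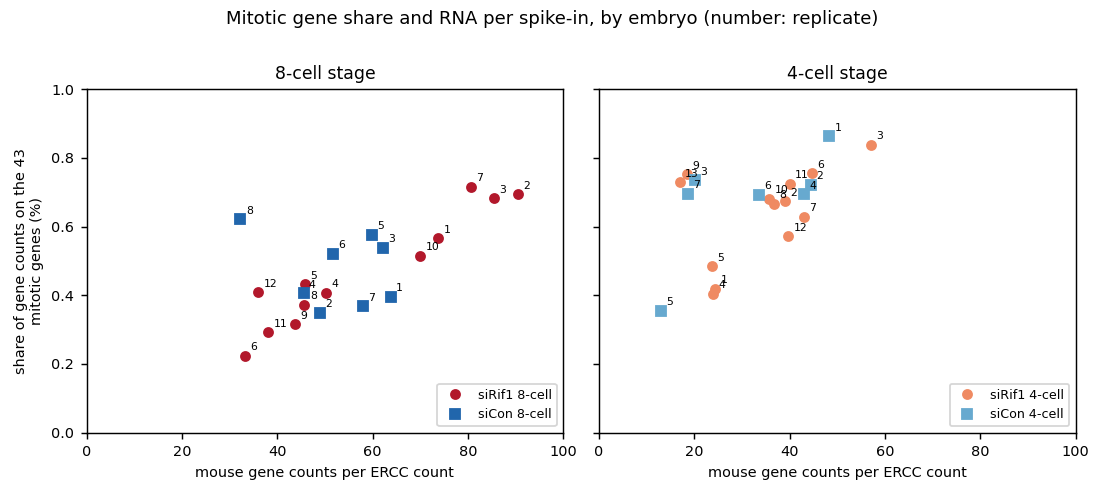
Share of gene counts on the 43 mitotic genes (percent, vertical axis) against mouse gene counts per ERCC count (horizontal axis) at the 8-cell (left) and 4-cell stage (right), with siRif1 embryos as circles and siCon embryos as squares, numbered by replicate. In the siRif1 8-cell group, embryos 1, 2, 3, 7 and 10 lie at the upper right, from 0.516% to 0.716%.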

How the data were processed

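The authors deposited raw read counts per gene for each embryo, made with STAR 2.7.6a on GRCm38 per the submitters' processing notes. The release of the annotation was not given in the sources used here. Between 23.2% and 55.4% of each table's reads were in its 4 summary entries, which were left out with the ERCC entries. The unstranded column was used. Symbols, exon overlaps and exon lengths came from GENCODE M21. No duplicate libraries were found. The 43 genes, the other lists and the tests were chosen with earlier results of these data known. Groups came from the sample titles.

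Counts were filtered with filterByExpr (minimum count 10), scaled by TMM and fitted with edgeR 4.0.16 (robust quasi-likelihood, 1 coefficient per group, 40 embryos), with Benjamini-Hochberg adjustment over all 11844 genes and a threshold of 0.05. This pipeline was tested on simulated data. CPM values are TMM-scaled, log2 CPM used a prior count of 2, and intervals are 95% intervals of the fit. Named were all genes of the set that passed, the 5 smallest p-values per siRNA comparison, the 3 smallest for the interaction, the per-kilobase extremes of each role, and the extremes of each other list. Cenpf at the 4-cell stage was named after its value was seen.

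Alternatives were DESeq2 1.42.0 size factors and its Wald test, limma-voom 3.58.1, ERCC totals, no filter, the compared groups alone, siCon 4-cell embryos 3 and 7 left out, each embryo left out, and a replicate block. Promoters came from RefSeq, GRCm38.p6.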

Additional observations from a re-analysis of the deposited data

Results flagged for a closer look

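Within the siCon groups, 8 values stood apart from the rest of their group, each with a gap to its nearest neighbour that was a large share of the group's range. Gaps and ranges were taken on the log2 CPM scale, while the values given are CPM. With 86 groups screened, 4.3 such values arise at the usual rate of 1 in 20. The siRif1 groups were not screened, because limits were set only for groups of 7 and 8 embryos, so values that stand apart there were not looked for.

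At the 4-cell stage, siCon embryo 7 was far above the others for Plk4 at 237 CPM, next to 73.1, a gap of 0.6012 of the range. The same embryo was low for Nek2 at 91.8 CPM, next to 162, a gap of 0.6036. Both genes are among those with the smallest p between siRif1 and siCon embryos. siCon 4-cell embryo 5 was low for Cdc20 at 178 CPM, next to 690.4, with a gap of 0.647. It was also low for Incenp at 31.3 CPM, next to 96.2, with a gap of 0.64, and for Anln at 29.0 CPM, next to 81.8, with a gap of 0.5958.

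At the 8-cell stage, siCon embryo 2 was low for Cdc25b at 1.15 CPM, next to 10.5, with a gap of 0.5262. siCon embryo 8 was high for Bub3 at 179.6 CPM, next to 93.2, with a gap of 0.6184. siCon embryo 4 was low for Kif11 at 46.7 CPM, next to 78.6, with a gap of 0.5486.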

How the results depend on the processing

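Calls among the 43 genes between stages depended most on scaling. With ERCC totals the siRif1 count was 3 in place of 14 with a median of 0.31 in place of -0.22, and the siCon count was 1 in place of 15 with a median of 0.092 in place of -0.36, while Knl1 turned to 0.060 and 0.0036. Measured from the all-gene median under that scaling, the medians of the 43 were -0.15 and -0.39. Without the low-count filter the siCon count was 9. Leaving out 1 embryo gave 13 to 15 calls in siRif1 and 11 to 18 in siCon embryos. Spc24 in siCon embryos, and Cenpa and Cdk1 in siRif1 embryos, kept their calls in every setting. Between siRif1 and siCon 4-cell embryos the count was 0, with 0 to 1 when 1 embryo was left out. Without siCon 4-cell embryos 3 and 7, the interaction value of Plk4 was -0.010 and Cenpf stood at 0.13 between siRif1 and siCon 4-cell embryos. The cause was not tested.

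Over all genes, the 67 calls between siRif1 and siCon 4-cell embryos became 322 without the filter, 192 with DESeq2, 4 with limma-voom, 4 with ERCC totals, 2 with the compared groups alone, 2 without siCon embryos 3 and 7 and 0 with the replicate block. The single 8-cell call became 0 with ERCC totals, no filter, limma-voom, the groups alone or the block, the siCon stage count of 3554 became 2224 with ERCC totals, and the interaction count of 0 became 10 with DESeq2.

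Replicate numbers did not pair the embryos: of 15 same-numbered pairs, 3 correlated above 0.1 and 2 siRif1 embryos correlated best with their own number. With the replicate block the counts among the 43 were 12 in siRif1 and 11 in siCon embryos between stages and 0 between siRNAs at either stage. Gene counts per embryo ran from 704863 to 8890551.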
